A study of Homo sapiens with 2 samples.

Results

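Matrix metalloproteinases (MMP), ADAM and ADAMTS proteases and the tissue inhibitors of metalloproteinases (TIMP) were examined in PLC8024 cells with and without MAEL. The genes were those typed as protein-coding in the deposited table whose symbol begins with MMP, ADAM, ADAMTS or TIMP followed by a number, which gave 67 of 58735 genes: 24 MMP, 20 ADAM, 19 ADAMTS and 4 TIMP genes. PLC8024 is a line of PLC/PRF/5 (Alexander) cells, an epithelial line from a human hepatocellular carcinoma (HCC). The MAEL WT library came from untreated wildtype cells, and the MAEL KO library from cells of the same line in which MAEL, a cancer/testis gene, was cut by Cas9 with a MAEL sgRNA. Per the study's methods, knockout cells were sorted for the plasmid's mCherry and grown as single clones. Total RNA was sequenced once per condition, so the comparison asks which of these genes differed between 2 libraries, and what belongs to the knockout and what belongs to the clone cannot be told apart.

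MMPs cut collagens and other matrix proteins, and the membrane-type members act at the cell surface. ADAM proteases release the outer parts of membrane proteins such as growth factor precursors and adhesion molecules, while ADAMTS proteases are secreted and cut proteoglycans, procollagens and von Willebrand factor. TIMPs bind the active site of these enzymes and block it. Most of the enzymes are made as inactive proenzymes whose activity an RNA count does not show.

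The libraries held 19904136 counts (MAEL WT) and 20833332 counts (MAEL KO). MAEL itself had 1 count in MAEL WT and 0 in MAEL KO, both at or under a floor of 3 counts, so the labels could not be checked by the targeted gene. The study describes PLC8024 as its line with the most MAEL and shows MAEL protein across lines by Western blot. It reports the knockout by Western blot and a DNA mismatch assay. MAEL reads were nearly absent from the MAEL WT library, but RNA reads of a single line cannot rank lines and do not measure protein. Hepatocyte markers were present in both libraries. All 10 of those reported were higher in MAEL KO, their summed level going from 13002 to 25670 CPM (counts scaled to the library total). Fibroblast markers summed to 14.1 and 8.50 CPM (ACTA2 at 0 in both), leukocyte markers to 5.07 and 1.49 (CD3E at 0 in both) and endothelial markers to 17.8 and 19.6. The part of these shifts in the results below was not tested. In bulk RNA, fewer cells of a type and less RNA per cell cannot be told apart.

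Of the 67 genes, 30 had at least 10 counts in at least 1 library and are called measured here. Their counts were scaled by TMM factors, and fold changes are log2 of MAEL KO over MAEL WT after adding 1 to each normalized count. With 1 library per condition there is no replicate error and no p-value. Intervals are exact 95% Clopper-Pearson intervals, which cover counting error alone.

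The inhibitors went in opposite directions. TIMP3 was the only one of the 30 measured genes above a log2 fold change of 2, and TIMP1 and TIMP2 were lower in MAEL KO. Below -2 lay 6 genes: the enzymes ADAMTS7, MMP16, ADAM33, ADAMTS2 and ADAMTS20, and ADAM23, which has no protease activity. The membrane-type collagenase MMP14 lay just outside that threshold at -1.88 and TIMP1 at -1.85, while ADAMTS20 lay just inside it at -2.06. The enzyme RNAs with the most counts (ADAM9, ADAM10, ADAM15 and ADAM17) all lay between log2 fold changes of -0.59 and 0.52.

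**Figure D1:**
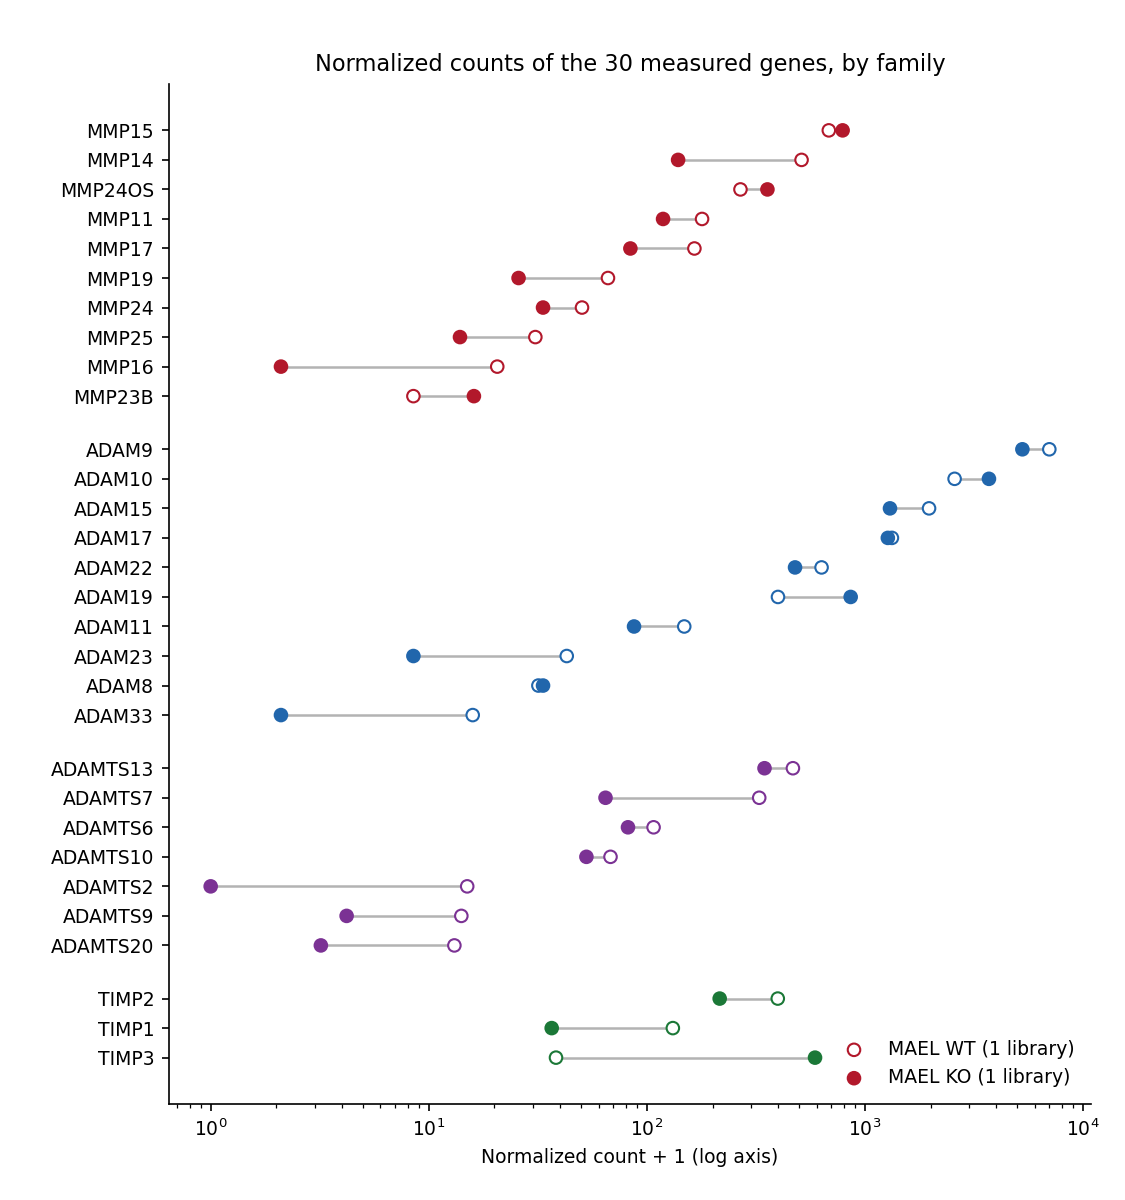
Normalized count plus 1 on a log axis for each of the 30 measured genes, by family. Open points are the MAEL WT library, filled points the MAEL KO library and colours the families, and TIMP3 is the gene whose filled point lies farthest to the right of its open point (37.3 to 588.9).

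These shares can be read against the whole table, in which 17887 genes were measured by the same count minimum. Above 2 lay 2.16% of all genes and 1 of the 30 members (3.33%). Below -2 lay 5.64% of all genes and 6 of the 30 members (20%). When only the library totals set the scale, the background was 1.5% and 7.32%, and the members numbered 1 and 8. Most of the members past -2 were thinly counted, and 4 of the 6 had 3 or fewer counts in MAEL KO. All of the 6 but ADAMTS7 reached the count minimum in MAEL WT alone, so the filter favoured a lower value for them. Among genes with under 100 counts in both libraries, 12.4% of all genes and 5 of the 12 members were below -2. Among genes with at least 100 counts in 1 library, 2.35% of all genes and 1 of the 18 members (ADAMTS7) were below -2. At the lower threshold of 1, 2 of the 30 members were above it, where 10.2% of all genes were, and 11 were below -1, where 16.5% of all genes were.

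The median log2 fold change was -0.60 over the 30 members and -0.04 over all measured genes. Setting members at or under the floor to their bound could not change the member median (-0.60), because all these bounds also lie below it. Among genes with at least 100 counts in 1 library the medians were -0.42 for members and 0.07 for all genes, and among the thinly counted ones -1.55 and -0.42. In all, 23 members were lower and 7 higher in MAEL KO, while 51.96% of all measured genes were lower. The counting interval left out 0 for 24 members, 5 of them higher and 19 lower. It did so for 16 of the 18 members with at least 100 counts in 1 library, where even a small difference can leave out 0. The share over all genes was not computed, so the 24 cannot be read as a trait of these families. Total-count scaling shifted the median of all genes by -0.27, and under it MMP15 and ADAM8 changed from slightly higher to slightly lower.

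**Figure D2:**
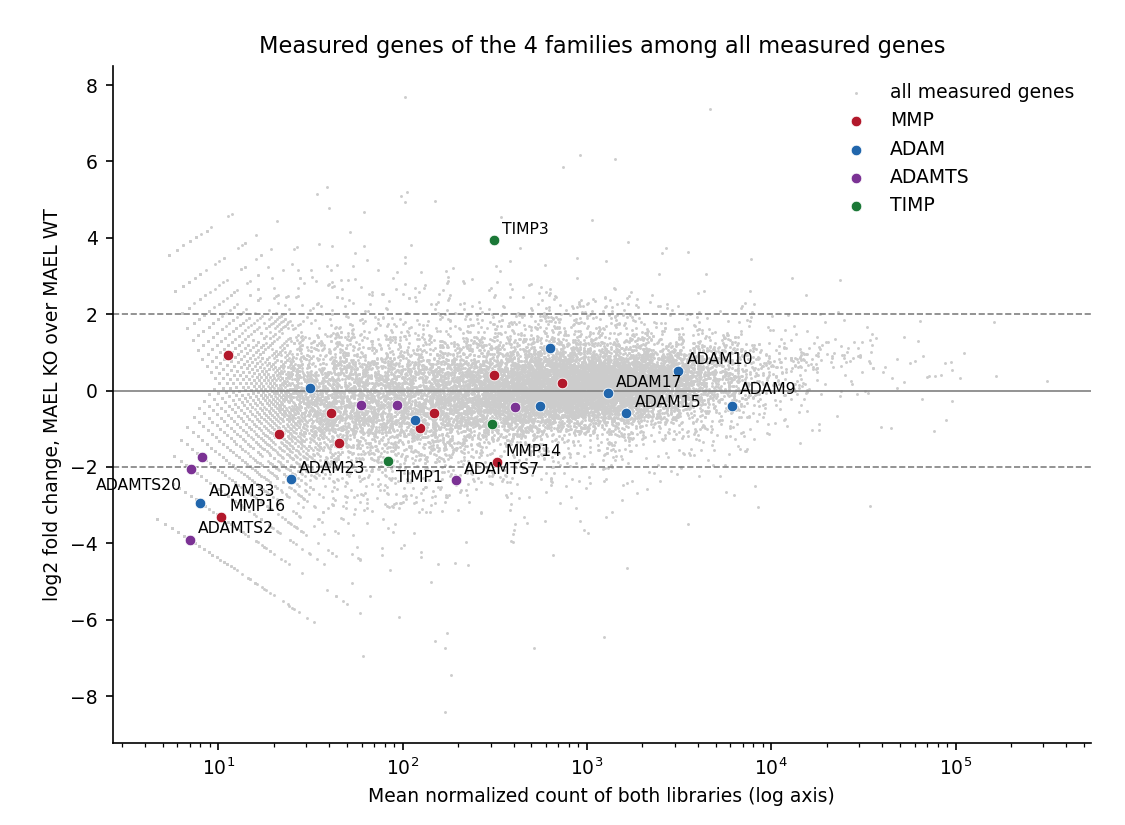
Log2 fold change against the mean normalized count (log axis) for all 17887 measured genes (grey) and the 30 members (colours by family), with dashed lines at 2 and -2. TIMP3 stands above the grey cloud at 3.95, while the members below -2 other than ADAMTS7 lie at the thinly counted left end.

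TIMP3, the inhibitor that binds to the matrix and also blocks ADAM17, had 40 counts in MAEL WT and 546 in MAEL KO. Its log2 fold change was 3.95 (interval 3.52 to 4.48), which is 15.4-fold. TIMP3 (ENSG00000100234) lies on the plus strand at chr22:32801701-32863043 (GRCh38), inside SYN3 on the opposite strand, with which it shares no exon bases. SYN3 had 3 and 2 counts. TIMP1, a secreted inhibitor of many MMPs, had 140 and 33 counts (log2 fold change -1.85, interval -2.47 to -1.32). TIMP2, which both inhibits MMP14 and takes part in activating proMMP2 with it, had 426 and 199 counts. TIMP4 had 5 and 0 counts and was not measured.

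Per transcript length, using the deposited FPKM, the make-up of the inhibitors differed more than their sum. Summed TIMP FPKM was 8.15 in MAEL WT and 9.25 in MAEL KO. TIMP3 made up 4.88% of it in MAEL WT and 67.6% in MAEL KO, TIMP1 51.0% and 12.2%, and TIMP2 42.4% and 20.1%. Among the 29 measured genes other than MMP24OS, TIMP3 ranked 20 by FPKM in MAEL WT and 5 in MAEL KO. Ratios within a library do not depend on the scaling, and 9 pairs were compared this way, chosen after their values were seen. The TIMP3 to TIMP2 count ratio was 29.1 times as high in MAEL KO (exact conditional interval 20.1 to 43.0), the TIMP3 to TIMP1 ratio 57.2 times (34.3 to 98.3) and the TIMP1 to TIMP2 ratio 0.505 times as high (0.323 to 0.774).

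**Figure D3:**
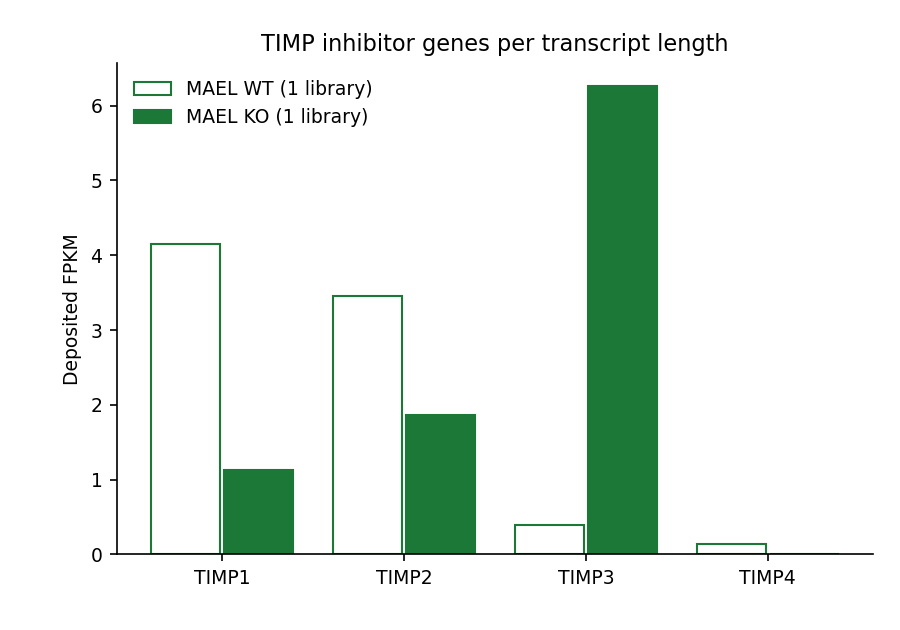
Deposited FPKM of the 4 TIMP genes, open bars for the MAEL WT library and filled bars for the MAEL KO library. TIMP1 (4.15 to 1.13) and TIMP2 (3.46 to 1.86) are lower in MAEL KO, TIMP3 is higher (0.397 to 6.26) and TIMP4 is listed at 0 in MAEL KO.

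TIMP3 and ADAMTS7 were the only members past 2 in size with at least 50 counts in 1 library, one in each direction. The 250 bases before their RefSeq start sites (GRCh38.p14) are shown for that reason, with GC boxes (GGGCGG on either strand, which may overlap one another) in capitals.
TIMP3, chr22:32801455-32801704, plus strand: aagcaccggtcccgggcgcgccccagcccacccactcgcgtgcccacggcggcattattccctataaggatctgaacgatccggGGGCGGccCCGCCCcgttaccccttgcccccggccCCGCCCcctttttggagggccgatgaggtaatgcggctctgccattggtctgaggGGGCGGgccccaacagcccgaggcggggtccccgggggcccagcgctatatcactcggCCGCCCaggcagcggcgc
ADAMTS7, chr15:78811465-78811714, minus strand: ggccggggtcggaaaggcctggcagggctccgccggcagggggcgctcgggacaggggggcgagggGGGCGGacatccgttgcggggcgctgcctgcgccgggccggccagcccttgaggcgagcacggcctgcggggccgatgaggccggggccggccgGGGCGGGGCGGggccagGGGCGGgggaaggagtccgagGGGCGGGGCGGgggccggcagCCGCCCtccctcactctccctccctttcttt
Both stretches are rich in GC. The TIMP3 stretch held 5 GC boxes, 26 CpG dinucleotides and 72.4% G or C, and the ADAMTS7 stretch 7, 29 and 80.8%, beside medians of 11 CpG and 58.0% over 35116 promoter entries. A RefSeq entry was found for 40 of the 67 members. All entries were not limited to protein-coding genes or to 1 per gene, as the members were, so the shares compare unlike sets. A GC box was present in 27 of those 40 (67.5%) and in 42.6% of all entries of the same length. A TATA box (TATAAA on either strand) was present in 7 of the 40, namely ADAMTS10, MMP7, MMP8, MMP10, MMP20, MMP21 and MMP26, and in 10.7% of all entries. An AP-1 site (TGAGTCA on either strand) was present in 1 of the 40, that of MMP7, and in 4.2% of all entries. These are letter matches in a short window and describe no binding.

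The MMP family was carried by a few genes. MMP15 and MMP14, both anchored in the cell membrane, together with MMP11 and MMP17 made up 87.8% of summed MMP FPKM in MAEL WT and 90.7% in MAEL KO. The sum itself was 19.2 and 13.6. The 9 measured MMP enzymes had a median log2 fold change of -0.97, with 7 lower and 2 (MMP15 and MMP23B) higher in MAEL KO, of which MMP15 was slightly lower under total counts. MMP24OS fits the rule by symbol, but it lies on the strand opposite MMP24 and codes for a short protein (71 codons) without a metalloproteinase domain. With MMP24OS the median was -0.78.

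All 6 membrane-type MMPs were measured. MMP14, which cuts fibrillar collagen and activates proMMP2, had 548 counts in MAEL WT and 128 in MAEL KO (log2 fold change -1.88, interval -2.18 to -1.61). MMP15 had 731 counts in each library, so the MMP14 to MMP15 ratio was 0.234 times as high in MAEL KO (0.186 to 0.292). The 2 genes were close to each other in MAEL WT (5.61 and 7.56 FPKM) and apart in MAEL KO (1.51 and 8.73). The MMP14 to TIMP2 ratio was 0.50 times as high in MAEL KO (0.384 to 0.651), both genes being lower there.

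MMP17 and MMP25, the membrane types held by a lipid anchor, had 176 and 77 counts and 32 and 12 counts, and MMP25 had a log2 fold change of -1.14 (interval -2.30 to -0.21). MMP16 had 21 counts in MAEL WT and 1 in MAEL KO. Its log2 fold change was -3.31, with a wide counting interval of -9.55 to -1.55. MMP24 had 53 and 30 counts and MMP24OS 287 and 330. These 2 genes share 799 exon bases on opposite strands, and MMP25 shares 1454 exon bases (35.2% of its own) with MMP25-AS1. The strand setting of the counting is not given in the sources used here, so reads in such shared parts cannot be told apart.

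Among the secreted MMPs, MMP11 (stromelysin-3) had 191 and 109 counts. MMP19, which cuts basement membrane proteins, had 70 and 23 counts (log2 fold change -1.36, interval -2.14 to -0.70). It shares 814 exon bases with TMEM198B on the other strand. MMP23B had 8 and 14 counts and a near-identical copy, MMP23A, among the pseudogenes, so its value is uncertain.

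The gelatinases, which cut basement membrane collagen, and the interstitial collagenases were barely counted. MMP2 had 3 and 2 counts, MMP9 7 and 2, MMP1 6 and 0, MMP13 3 and 0 and MMP8 0 in both. The 9 MMP genes that lie side by side at chr11:102520508-102955734 (GRCh38) summed to 10 counts in MAEL WT and 0 in MAEL KO. The counting intervals of MMP2, MMP9 and MMP13 held 0, and that of MMP1 ended just below it, at a log2 fold change of -0.03. At this depth 3 counts correspond to 0.151 CPM in MAEL WT and 0.144 in MAEL KO.

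ADAM genes held the most counts of the 4 families, 15167 in MAEL WT and 12061 in MAEL KO. ADAM9, ADAM10, ADAM15 and ADAM17 made up 91.3% and 88.0% of summed ADAM FPKM. ADAM9, a widely expressed sheddase, had 7506 and 4882 counts (log2 fold change -0.41, interval -0.46 to -0.36) and was first by FPKM in both libraries. ADAM15, which carries an integrin-binding motif, had 2108 and 1206 counts (-0.59, interval -0.70 to -0.49). ADAM10, the main sheddase of Notch receptors and E-cadherin, had 2761 and 3430 counts (0.52, interval 0.45 to 0.60). ADAM17, which releases TNF and EGF-family ligands, had 1424 and 1179 counts (-0.06, interval -0.17 to 0.05).

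The balance of ADAM10 to ADAM17 differed between the libraries. Their FPKM values were 7.81 and 6.06 in MAEL WT and 11.2 and 5.79 in MAEL KO, and the ADAM10 to ADAM17 count ratio was 1.5 times as high in MAEL KO (1.37 to 1.65). Against ADAM9 the ADAM10 ratio was 1.91 times as high (1.79 to 2.03). The ratio of TIMP3 to ADAM17, which it inhibits, was 16.5 times as high (11.8 to 23.5). ADAM19, which cuts neuregulin precursors, had 427 and 796 counts (1.11, interval 0.94 to 1.28) and was the only ADAM gene above 1, a call lost with total-count scaling (0.83). Its ratio to ADAM17 was 2.25 times as high in MAEL KO (1.95 to 2.60). ADAM17 shares 1323 exon bases with IAH1 on the other strand, which had 749 and 735 counts.

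The remaining ADAM genes were less abundant. ADAM22 had 677 and 442 counts, ADAM11 158 and 80, and ADAM8, a leukocyte-associated sheddase, 33 and 30. ADAM23 had 45 and 7 counts (log2 fold change -2.33, interval -3.87 to -1.31). ADAM33 had 16 counts and 1 count (-2.94, interval -9.18 to -1.10). ADAM11, ADAM22 and ADAM23 are members without protease activity, known as adhesion or receptor proteins of the nervous system, and all 3 were lower in MAEL KO.

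The shared zinc-binding site of the active enzymes is a fixed order of codons for histidine, glutamate and glycine. It was found in the GENCODE 29 coding sequence of 49 of the 67 genes and not in ADAM11, ADAM22 or ADAM23, MMP24OS or the TIMPs. It was also not found in ADAMTS1, ADAMTS4, ADAMTS8, ADAMTS9 and ADAMTS15, in which the same search with any codon in the glycine position did find it. The 33 bases of the site are shown for 6 abundant enzymes that differed in direction or size, with the fixed codons in capitals, GRCh38 coordinates and, for ADAM10 and ADAMTS7, an intron within the stated range.
MMP14, chr14:22843283-22843315, plus strand: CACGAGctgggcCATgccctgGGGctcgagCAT
MMP15, chr16:58040563-58040595, plus strand: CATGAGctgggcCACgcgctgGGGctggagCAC
ADAM10, chr15:58627881-58633225, minus strand: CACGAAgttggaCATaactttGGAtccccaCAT
ADAM17, chr2:9510078-9510110, minus strand: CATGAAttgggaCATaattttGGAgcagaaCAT
ADAM19, chr5:157505734-157505766, minus strand: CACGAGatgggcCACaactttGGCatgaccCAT
ADAMTS7, chr15:78788359-78789705, minus strand: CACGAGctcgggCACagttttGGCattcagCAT
Of the 22 measured genes with the full site, 17 were lower and 5 higher in MAEL KO (median log2 fold change -0.59), with MMP15 and ADAM8 among the latter lower under total counts. Of the 8 without it, 6 were lower and 2 higher (median -0.82). These 8 include the measured TIMPs, MMP24OS and the protease ADAMTS9, so the split does not part enzymes from other genes. Over all measured genes 51.96% were lower, and 64.55% of those with under 100 counts in both libraries. MMP16, ADAM33, ADAMTS2 and ADAMTS20 with the site, and ADAM23 and ADAMTS9 without it, reached the count minimum in MAEL WT alone.

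**Figure D4:**
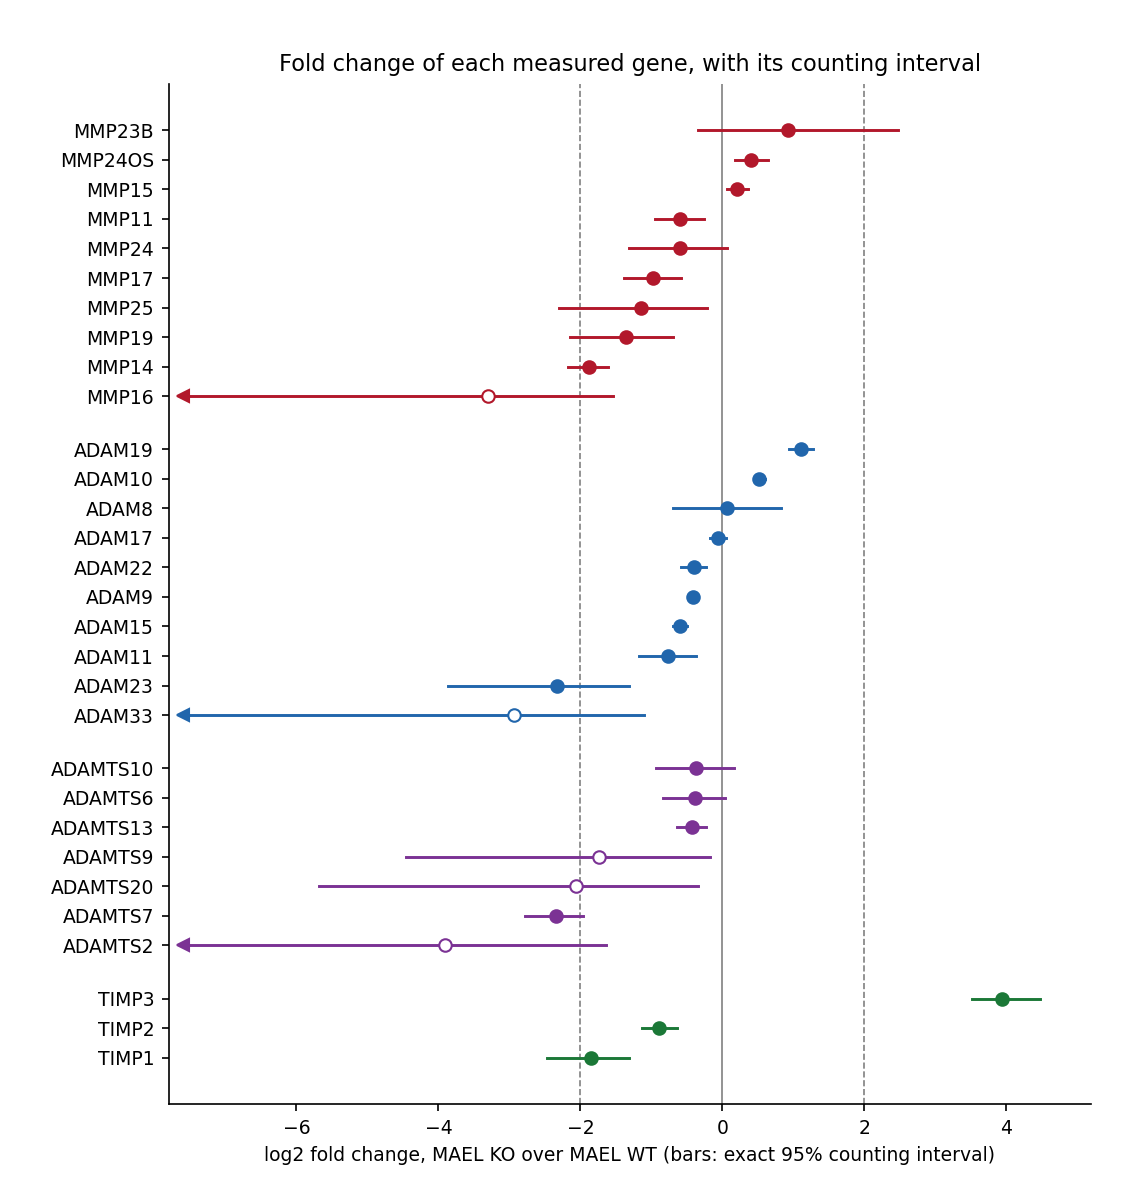
Log2 fold change of each measured gene (point) with its exact 95% counting interval (bar), by family, and dashed lines at 2 and -2. Open points have 3 or fewer counts in 1 library, arrowheads mark intervals that run past the axis, and all 7 ADAMTS points lie below 0.

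All 7 measured ADAMTS genes were lower in MAEL KO. Of these, ADAMTS2, ADAMTS9 and ADAMTS20 reached the count minimum in MAEL WT alone, so the filter favoured a lower value for them. The median of the 7 was -1.73 on the log2 scale, or -1.91 with the genes at or under the floor set to their bound. The bound of ADAMTS9 (-2.01) lay below its fold change (-1.73), so the second median is not the more cautious one. It rested on the thinly counted members, being -0.43 over those with at least 100 counts in 1 library and -1.13 with 5 in place of 1 added to the normalized counts. Summed ADAMTS FPKM was 7.55 in MAEL WT and 4.30 in MAEL KO. ADAMTS7, which cuts cartilage oligomeric matrix protein (COMP), had 350 and 59 counts (log2 fold change -2.34, interval -2.78 to -1.96). Its share of summed ADAMTS FPKM was 27.4% in MAEL WT and 9.36% in MAEL KO. ADAMTS7 lies on the minus strand at chr15:78759203-78811431 (GRCh38). Its pseudogene copies had few counts, at most 7 in any library, and how the counting split reads between near-identical copies is not given in the sources used here.

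ADAMTS13, the liver-made protease of von Willebrand factor, had 500 and 320 counts and was the most abundant ADAMTS RNA in both libraries (4.0 and 2.96 FPKM). ADAMTS6 and ADAMTS10, which act on fibrillin microfibrils, had 114 and 75 counts and 72 and 48 counts. The counting intervals of these 2 genes held 0.

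The other 3 rested on few counts. ADAMTS2, the procollagen N-propeptidase, had 15 counts in MAEL WT and 0 in MAEL KO. Set against a floor of 3 counts this is 4.32-fold lower (log2 -2.11), although its counting interval allowed any log2 value below -1.63. ADAMTS20 had 13 and 2 counts (log2 fold change -2.06, interval -5.68 to -0.35), and its bound against 3 counts was -1.91, short of -2. ADAMTS9, which cuts versican and aggrecan, had 14 and 3 counts (-1.73, interval -4.45 to -0.17).

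The other 37 genes were not measured. No count was seen for 19 of them in either library: 7 MMP, 5 ADAM and 7 ADAMTS genes. The other 18 summed to 57 counts in MAEL WT and 17 in MAEL KO, with 14 higher in MAEL WT, 2 higher in MAEL KO and 2 equal. In the whole table, 27304 genes had a count in MAEL WT and 25745 in MAEL KO. The same split over all unmeasured genes was not computed, so the 14 cannot be read as a trait of these families. Only 7 of the 18 had more than 3 counts in a library. These were MMP1, MMP9, TIMP4, MMP28 (6 and 1), ADAM21 (4 and 1), ADAM32 (4 and 6) and ADAMTS4 (4 and 0).

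Genes that act with the 4 families were taken as 8 lists. Among inhibitors other than TIMPs, 10 of 13 genes were measured, 0 lay above 2 and 2 below -2 (median -0.07). These were TFPI2, a serine protease inhibitor of the matrix (739 and 81 counts, log2 fold change -2.96), and SERPINE2 (46 counts and 1 count, log2 fold change -4.40, interval -10.65 to -2.76). RECK, the membrane-anchored MMP inhibitor, had 198 and 186 counts. A2M, the general plasma protease inhibitor, had 2816 and 4052 counts (0.74).

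Among activators of proenzymes, 11 of 18 were measured (median -0.22). Above 2 lay ST14, the membrane protease matriptase, with 4 and 27 counts (2.67, interval 1.44 to 4.94). Below -2 lay PLAU, the urokinase plasminogen activator, with 85 and 3 counts (-4.24, interval -6.92 to -3.02). FURIN, which removes the propeptide of membrane-type MMPs and most ADAM and ADAMTS proteases, had 17024 and 14431 counts (-0.03, interval -0.06 to 0.00).

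Among the partners of ADAM10 and ADAM17, 9 of 10 were measured and 0 lay past 2 in either direction (median -0.41). The tetraspanins TSPAN5 and TSPAN15, which carry ADAM10 to the cell surface, had 229 and 63 counts (-1.64) and 1459 and 617 counts (-1.03). TSPAN14, of the same group, had 1015 and 1422 counts (0.70), and RHBDF2, a carrier of ADAM17, had 1398 and 910 (-0.41). ADAM10 was thus higher in MAEL KO, while TSPAN5 and TSPAN15 were lower and TSPAN14 higher there.

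**Figure D5:**
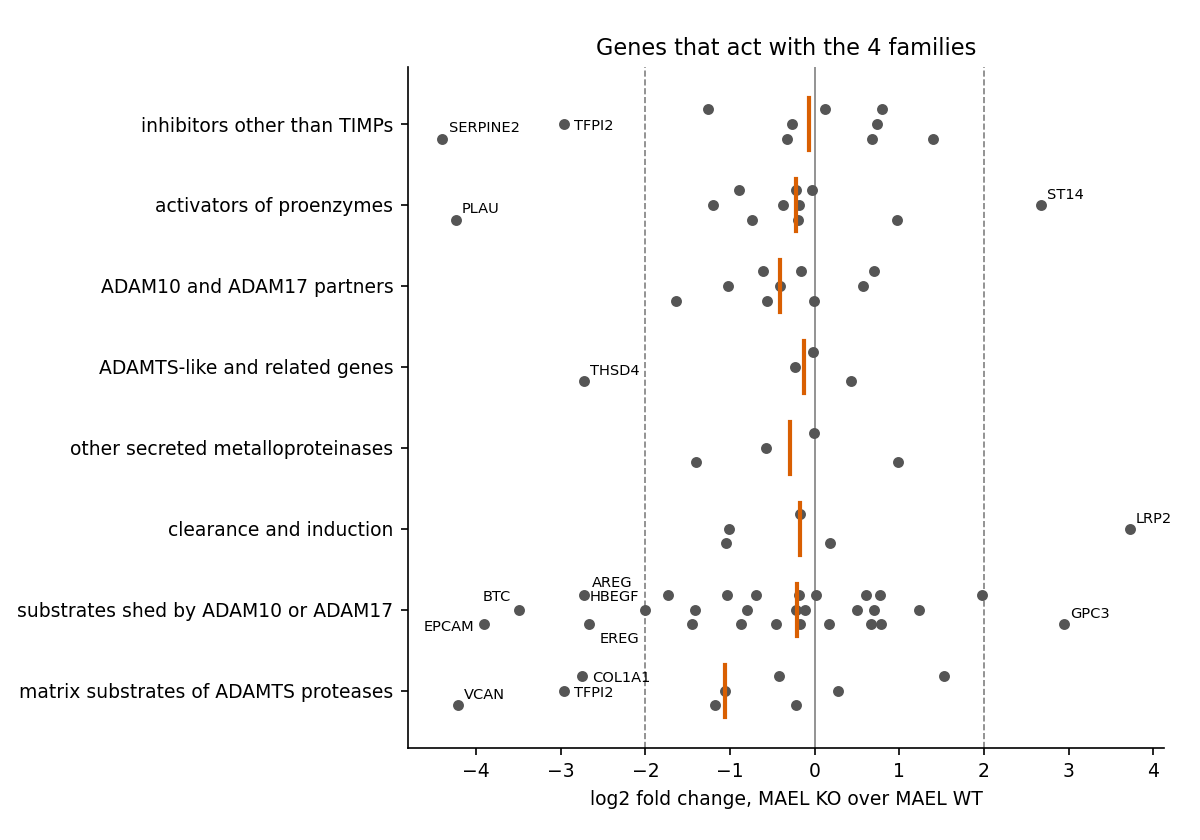
Log2 fold change of each measured gene (point) of the 8 lists of genes that act with the 4 families, with the list median as an orange bar and dashed lines at 2 and -2. Most points lie between the dashed lines, and genes outside them are named.

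Among the substrates shed by ADAM10 or ADAM17, 28 of 34 were measured, 1 lay above 2 and 5 below -2 (median -0.21). The membrane precursors of EGF-family growth factors made up most of the latter. AREG had 11742 and 1533 counts (-2.73), EREG 10556 and 1438 (-2.66), HBEGF 282 and 60 (-2.01), and BTC 24 counts and 1 count (-3.49, interval -9.74 to -1.76). EPCAM, an epithelial adhesion molecule, had 15 and 0 counts (counting interval below -1.63). GPC3, an oncofetal proteoglycan of liver cancer, had 3196 and 21285 counts (2.95). At the lower threshold of 1, 3 of the 28 were above it and 9 below -1, where 10.2% and 16.5% of all genes were. Besides GPC3, the 3 were VCAM1, with 110 and 377 counts (1.98), and CD44, with 28 and 58 (1.23). The Notch receptors, substrates of ADAM10, differed among themselves, NOTCH3 having 832 and 263 counts (-1.45) and NOTCH1 484 and 471 (0.17).

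Matrix substrates of ADAMTS proteases were measured for 9 of 18 genes, of which 0 lay above 2 and 3 below -2 (median -1.05). These were VCAN, the proteoglycan versican (256 and 11 counts, -4.22), TFPI2, and COL1A1, a chain of type I collagen (92 and 11 counts, -2.75). FN1, fibronectin, had 75727 and 56185 counts (-0.22). VWF and COMP, the substrates of ADAMTS13 and ADAMTS7, had at most 1 count in each library.

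Of the ADAMTS-like and related genes, 4 of 8 were measured (median -0.13), and THSD4, an extracellular protein that binds fibrillin, lay below -2 with 335 and 43 counts (-2.73). The list of other metalloproteinases, not all of them secreted, had 4 of 12 measured and 0 past 2 (median -0.29). Of the 5 genes of clearance and induction, all measured (median -0.18), LRP2 lay above 2 with 406 and 4638 counts (3.72). Its relative LRP1, a receptor that takes up protease and inhibitor complexes including TIMP3, had 11017 and 4727 counts (-1.01). The 2 receptors thus differed in opposite directions. The lists overlap in TFPI2, and their shares stand beside the same background of 2.16% above 2 and 5.64% below -2.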

How the data were processed

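The authors sequenced total RNA of PLC8024 cells as 1 Illumina library for MAEL WT and 1 for MAEL KO. The submitters' processing notes name HISAT2 2.0.5, featureCounts 1.5.0-p3 and build hg19, while the positions in the deposited tables are those of GRCh38. Per the file headers, the authors deposited raw counts per gene and FPKM values. The library sizes behind the deposited FPKM were 1.10 and 0.910 times the total counts, close to the TMM factors (1.10 and 0.909).

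Counts were scaled with edgeR 4.0.16 (TMM) in R 4.3.3, or with DESeq2 1.42.0 size factors or total counts as alternatives. Genes with at least 10 counts in 1 library (17887 of 58735) were kept, and 1 was added to normalized counts. Fold changes, threshold counts and figures used these values, also for genes with 0 counts in 1 library. As a bound, a gene with 3 or fewer counts in 1 library was set against 3 counts there, and medians were also taken with such genes at their bound. With 1 library per condition no test was made. Intervals (95%, scipy 1.17.1) cover counting error alone, and PCR copies of a molecule may be counted more than once. The calculation was tested on simulated data. Other alternatives were the deposited FPKM ratio, other added counts, count minimums and thresholds.

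Promoters were those of RefSeq, and coding sequences those of GENCODE 29, in which the zinc-binding codons were searched with Biopython 1.88. One marker gene is not reported here. The genes and lists were chosen with earlier results of these data known. Every member with at least 10 counts is named with both counts. Folds are given past log2 1 in size or from 1000 counts, and otherwise where a comparison rests on them. Listed genes are named past log2 2, and the others were chosen after their values were seen.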

Additional observations from a re-analysis of the deposited data

Results flagged for a closer look

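Genes that carry the same names but are not typed as protein-coding stood outside the comparisons, and 6 of them had more than 3 counts in a library. MMP25-AS1, on the strand opposite MMP25, had 236 counts in MAEL WT and 149 in MAEL KO. MMP23A, the pseudogene copy of MMP23B, had 7 and 12 counts. ADAMTS7P4 had 6 counts in MAEL WT and 4 in MAEL KO, and ADAMTS7P3 had 7 in MAEL KO. ADAM20P1 had 7 counts and ADAM1B 4 counts in MAEL KO. With 1 library per condition, no group was large enough to look for a library that stands apart.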

How the results depend on the processing

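The number of members above the threshold was 1 and the number below it 6. With a log2 threshold of 1 they were 2 and 11. The number below was 2 with 5 added to normalized counts, and 1 with at least 100 counts in 1 library, where 12 members drop out by construction. Without a count filter it was 9, with total counts 8 (MMP14 and TIMP1 in addition), and with the deposited FPKM 5. The background above 2 was 3.42% without a count filter and 1.4% with 5 added, and below -2 it was 2.87% with 5 added. The median of the members stayed below 0 under the 7 alternatives run, between -0.95 and -0.42, as did that of each family, but the ADAMTS median went from -1.73 to -0.43 over members with at least 100 counts in 1 library. The sign of single members differed only with total counts, for MMP15 and ADAM8. No paired analysis was possible because each condition has 1 library, and for the same reason leaving out a library was not possible. The depth limits 4 of the 7 members past 2, which had 3 or fewer counts in a library.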
